A study of Mus musculus with 2 samples.

Results

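The Gimap genes (GTPases of the immunity-associated protein family) were followed across liver leukocytes of mice given oral antibiotics and mice given vehicle. The 8 members were chosen by symbol, Gimap1, Gimap3, Gimap4, Gimap5, Gimap6, Gimap7, Gimap8 and Gimap9, and each was found once among the 28692 genes of the files. CD45+ leukocytes had been purified by FACS from livers of 6-week-old female mice and captured as 1 antibiotic library and 1 vehicle library for droplet single-cell RNA-Seq. The antibiotic mice drank ampicillin at 1 mg/mL, vancomycin at 0.5 mg/mL, neomycin at 0.5 mg/mL and metronidazole at 1 mg/mL for 1 week by the labels, and the vehicle mice had none of these agents. The strain used for this experiment and the number of mice behind each library were not given in the sources used here. With 1 library per group there was no replicate and no test, and every interval below is a 95% interval that covers counting error only.

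Gimap proteins are GTPases made mainly by lymphocytes, several of them anchored in membranes inside the cell, and their genes form a tight cluster. They are best known for keeping lymphocytes alive after these leave the thymus or bone marrow: loss of Gimap5 in mice or rats leaves few T cells, and loss of Gimap1 in mice leaves few mature T and B cells. Their partners include proteins of the Bcl2 family, which set the threshold for mitochondrial cell death, and GABARAP-type proteins of autophagy.

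The antibiotic library held 7050 cells and the vehicle library 9002 cells, each a barcode with at least 1500 unique molecular identifiers (UMIs, 1 per captured transcript) and under 10% of them mitochondrial. The median cell had 3331 UMIs in the antibiotic library and 3515 in the vehicle library, and 93 barcodes were called in both. Cells were put in classes by UMIs of a few genes, which left 4175 antibiotic and 3514 vehicle cells as NKT-like (Trac and Cxcr6), 99 and 256 as NK (Ncr1 without Cd3), 1340 and 3016 as B (Cd79a), 34 and 174 as plasmacytoid dendritic cells (pDC, Siglech) and 650 and 786 as other T (Trac without Cxcr6). Zbtb16, the transcription factor that marks NKT cells, stood at 49.5 CPM (UMIs per 1000000 UMIs of the class) in antibiotic and 52.4 CPM in vehicle NKT-like cells, against 22.1 CPM and 17.6 CPM in other T cells. The NKT-like class therefore names a gate, and T cells of the liver that carry Cxcr6 without being NKT cells could sit in it. Klrb1c, which encodes NK1.1, reached 591 CPM in antibiotic and 316 CPM in vehicle NKT-like cells, and 261 CPM and 74.0 CPM in other T cells. The T cell markers Cd3d (1058 CPM and 1369 CPM) and Trbc2 (2264 CPM and 2549 CPM) were lower in antibiotic than in vehicle NKT-like cells. Cd3d was also lower in antibiotic than in vehicle other T cells (1023 CPM and 1242 CPM). Cells with a Cd4 UMI made up 13.5% of NKT-like cells in antibiotic and 20.3% in vehicle. Those with an Icam1 or Tnfrsf9 UMI made up 18.6% and 25.5%. The NKT-like class thus differed between libraries in these markers, and a difference in make-up was not told apart from one in level per cell. The part of cells with the NK lineage marker in the results on NKT-like and other T cells was not tested.

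The members lie side by side on mouse chromosome 6, over 123618 bp from 48647234 to 48770851 (GRCm38, GENCODE vM21), in the order Gimap8, Gimap9, Gimap4, Gimap6, Gimap7, Gimap1, Gimap5 and Gimap3. Gimap6 and Gimap3 are on the minus strand and the rest on the plus strand. Each library was taken to read 1 tag per transcript, near its 3′ end, and UMI levels were compared between members without a correction for length. The check of tags that follows was made for that end only and rests on this assumption. Tags of 90 bases from the last 500 bases of the transcripts were specific to 1 gene for 7 of the 8 members, and for Gimap1 1.94% of such words also occurred in Gm28053. Gm28053 is annotated across Gimap7, Gimap1 and Gimap5 on their strand and had 32 UMIs in antibiotic and 32 UMIs in vehicle NKT-like cells, where Gimap7 had 6083 and 8676.

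Gimap transcripts were abundant in T and NK cells, intermediate in B cells, low in pDC and near background in myeloid cells. The 8 members together reached 4940 CPM (4907 to 4974) in antibiotic and 4691 CPM (4659 to 4724) in vehicle NKT-like cells. NK cells had 4691 CPM (4430 to 4964) in the antibiotic library and 3773 CPM (3640 to 3910) in the vehicle library. Other T cells followed with 3411 CPM (3339 to 3485) in antibiotic and 2643 CPM (2589 to 2698) in vehicle, and B cells with 2190 CPM (2141 to 2241) and 2144 CPM (2114 to 2175). The order of the classes was the same in both libraries, although the intervals of NKT-like and NK cells overlapped in the antibiotic library. pDC had 691 CPM in antibiotic and 625 CPM in vehicle from 148 and 703 UMIs. Monocytes and macrophages, gated by Csf1r and Lyz2, held 2 Gimap UMIs in 11 antibiotic cells and 40 in 50 vehicle cells, a level of 42.5 CPM (5.15 to 154) and 190 CPM (136 to 259).

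**Figure D1:**
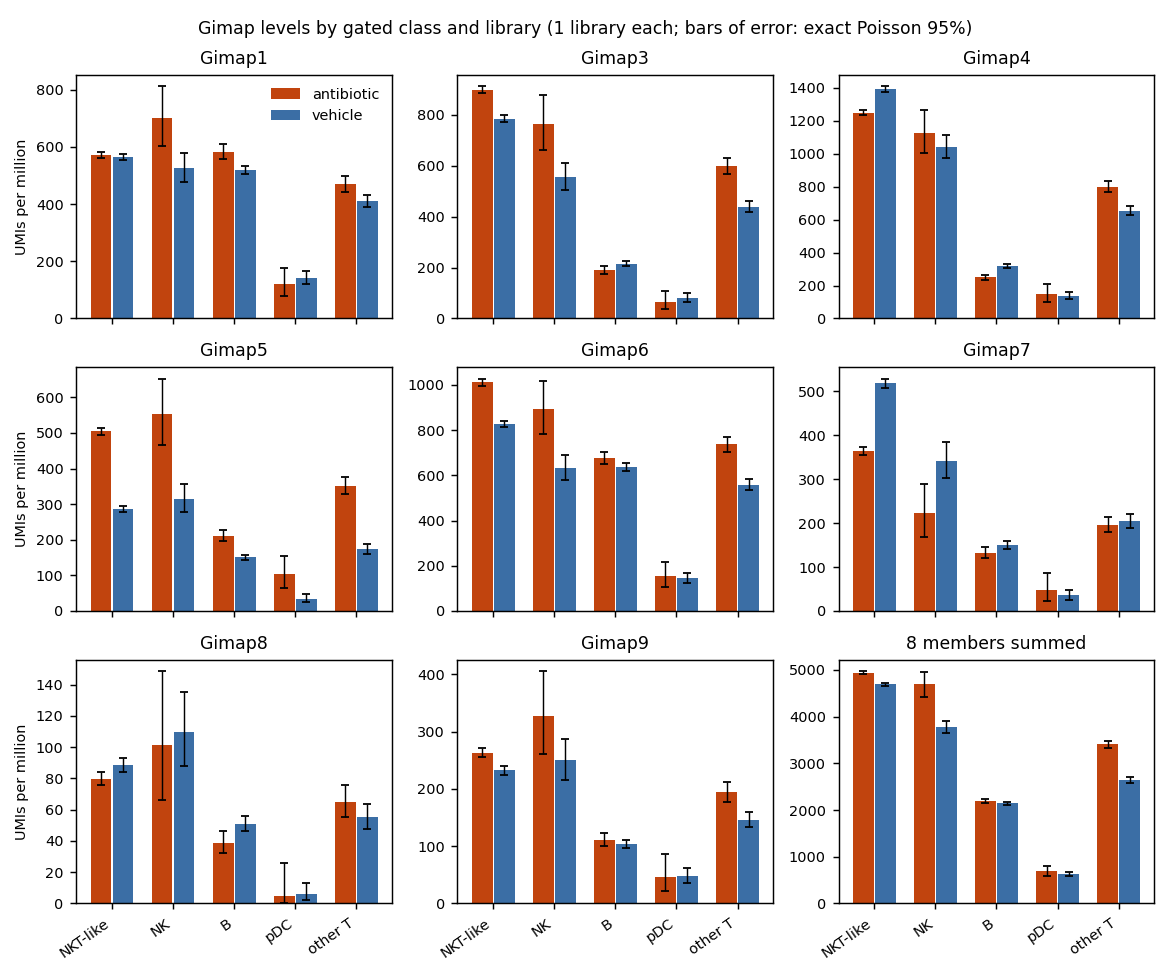
Level of each Gimap member and of the 8 summed, in CPM (y axis), in 5 gated classes (x axis) of the antibiotic library (orange, left) and the vehicle library (blue, right). Error bars are exact Poisson 95% intervals for counting error. The summed level was 4940 in antibiotic and 4691 in vehicle NKT-like cells and 691 and 625 in pDC, and Gimap5 was higher in the antibiotic library in each class shown.

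Relative to other T cells of the same library, NKT-like cells carried 1.45-fold more Gimap transcripts in the antibiotic library (1.42 to 1.48) and 1.78-fold more in the vehicle library (1.74 to 1.81). NK cells carried 1.38-fold and 1.43-fold more. The ratio of B cells to other T cells was 0.642 in antibiotic and 0.811 in vehicle, and that of pDC was 0.202 and 0.237. With stricter gates the pDC ratio was lower, at -3.31 in antibiotic and -2.90 in vehicle on the log2 scale, against -2.30 and -2.08 with the gates used here. All 8 members were higher in NKT-like than in other T cells in both libraries. At least 1.5-fold was reached by 2 of 8 members in the antibiotic library, where 4.74% of the 2487 genes tested did so, and by 6 of 8 in the vehicle library, where 10.5% of 2573 genes did so (genes tested had 50 CPM in the higher group and 30 UMIs in the groups together). Gimap7, whose human counterpart speeds GTP hydrolysis by another member of the family, had the highest ratio in both libraries, 1.85 (1.69 to 2.04) in antibiotic and 2.54 (2.35 to 2.75) in vehicle. Gimap1 had the lowest, 1.22 in antibiotic and 1.37 in vehicle.

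The members were not used in equal parts. In NKT-like cells Gimap4, which in mice speeds the death of T cells once it has begun, made up 25.3% of all Gimap UMIs in antibiotic and 29.6% in vehicle, followed by Gimap6 (20.5% and 17.6%), which binds an autophagy protein of the GABARAP type, and by Gimap3 (18.2% and 16.7%), a mitochondrial relative of Gimap5. Gimap8, the longest of the family, was the least used with 1.62% in antibiotic and 1.88% in vehicle. In B cells the lead was different: Gimap6 held 30.8% in antibiotic and 29.7% in vehicle, Gimap1 26.6% and 24.2%, and Gimap4 only 11.4% and 14.9%. Gimap1 was the only member with a higher level in B than in other T cells in both libraries, at 583 CPM in antibiotic B cells against 470 CPM in antibiotic other T cells, and at 519 CPM against 411 CPM in the vehicle library.

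Within the other T and NK classes, the summed Gimap level differed more between cell states than between treatments. Memory-like other T cells (Ccl5 without Ccr7 or Lef1) had 4764 CPM against 2326 CPM in naive-like cells (Ccr7 or Lef1 without Ccl5) of the antibiotic library, a ratio of 2.05 (1.92 to 2.18), and 4227 CPM against 2113 CPM in the vehicle library, a ratio of 2.001 (1.89 to 2.12). The level of naive-like T cells was close to that of B cells (2190 CPM in antibiotic and 2144 CPM in vehicle), and memory-like T cells came near NKT-like cells, which were 1.04-fold above them in antibiotic and 1.11-fold in vehicle. In the antibiotic library 7 of 8 members were at least 1.5-fold higher in memory-like than in naive-like cells, where 19.0% of 2601 genes were, and in the vehicle library 6 of 8 were, where 28.1% of 2687 genes were. Gimap7 stood out with 331 CPM in memory-like against 70.6 CPM in naive-like cells of the antibiotic library (4.69-fold, 3.36 to 6.69) and 505 CPM against 90.3 CPM in the vehicle library (5.59-fold, 4.40 to 7.18). Gimap4 was 2.92-fold and 2.58-fold higher, and Gimap1 differed least, at 1.24-fold and 1.32-fold.

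NK subsets also differed in the sum. ILC1-type cells (Cxcr6 without Eomes) had 5952 CPM against 3372 CPM in Eomes-type cells of the antibiotic library (1.76-fold, 1.49 to 2.09), and 5272 CPM against 3022 CPM in the vehicle library (1.74-fold, 1.59 to 1.92). These rest on few cells, 35 and 22 in antibiotic and 58 and 76 in vehicle. Single members did not all follow the sum: the ratio of ILC1-type to Eomes-type cells was 1.56 (0.967 to 2.60) in antibiotic and 1.04 (0.742 to 1.46) in vehicle for Gimap5, and 0.839 and 0.890 for Gimap9, with intervals that include 1. Gimap7 again had a wide gap, with 661 CPM in ILC1-type against 187 CPM in Eomes-type cells of the vehicle library. CD4 other T cells had 1.62-fold (antibiotic) and 1.46-fold (vehicle) the level of CD8 other T cells. By contrast, NKT-like cells with transcripts of Icam1 or Tnfrsf9, genes induced on activation, had 0.940-fold (antibiotic) and 0.931-fold (vehicle) the level of those without, and Cd4-positive NKT-like cells had 0.934-fold and 0.996-fold that of Cd4-negative ones. B cells with Vpreb3, a gene of immature and transitional B cells, were at 0.830-fold (antibiotic) and 0.758-fold (vehicle) the level of Fcer2a-positive B cells.

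**Figure D2:**
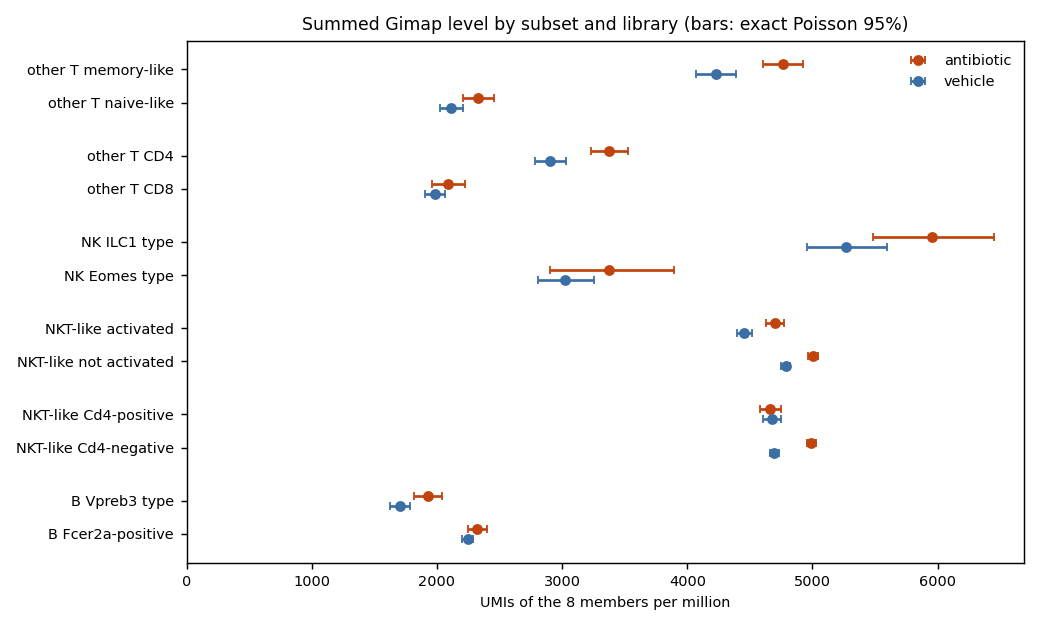
Summed level of the 8 members, in CPM (x axis), in 6 pairs of subsets (y axis) of the antibiotic library (orange, above) and the vehicle library (blue, below), with exact Poisson 95% intervals. Memory-like T cells (4764 and 4227) and ILC1-type NK cells (5952 and 5272) lie far to the right of naive-like T cells (2326 and 2113) and Eomes-type NK cells (3372 and 3022), while the NKT-like subsets lie close together.

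Single cells were compared after each was thinned to 1500 UMIs. The median NKT-like cell had 7 Gimap UMIs in both libraries, and the middle 90% of cells ran from 3 to 14 in antibiotic and from 2 to 13 in vehicle. At least 1 was found in 99.8% of antibiotic (99.6 to 99.9) and 99.4% of vehicle NKT-like cells (99.1 to 99.6), and before thinning in 100% and 99.97%. On average 4.28 different members were seen per NKT-like cell in antibiotic and 4.10 in vehicle. Other T cells had a median of 5 Gimap UMIs in antibiotic and 3 in vehicle, and B cells 3 in both. In monocytes and macrophages, which should lack the family, 9.09% of antibiotic (0.230 to 41.3) and 22.0% of vehicle cells (11.5 to 36.0) had a Gimap UMI after thinning, at median depths of 3316 and 3594 UMIs. pDC had one in 44.1% of antibiotic (27.2 to 62.1) and 47.1% of vehicle cells (39.5 to 54.8), and only in the vehicle library did the interval lie above that of myeloid cells. Among NKT-like cells the counts of pairs of members were almost unrelated, with a median Pearson r of 0.03 in antibiotic and 0.04 in vehicle over 28 pairs, and at this depth such values are no finding. Other T cells had a median of 0.09 in each library, with the highest pair at 0.33 in antibiotic and 0.29 in vehicle. The highest pair was 0.21 and 0.31 in NK cells and 0.11 and 0.09 in B cells.

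**Figure D3:**
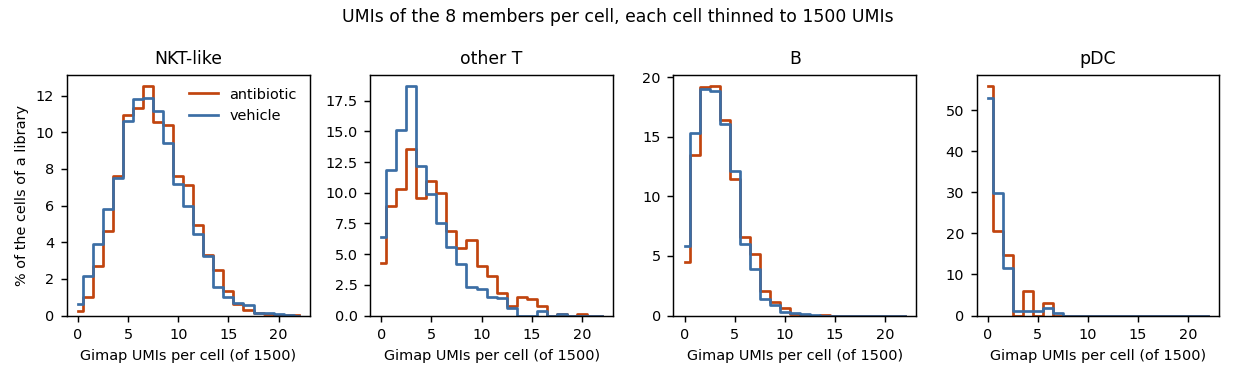
Share of the cells of a library (y axis, %) by the number of Gimap UMIs in a cell thinned to 1500 UMIs (x axis), for NKT-like, other T, B and pDC in the antibiotic library (orange) and the vehicle library (blue). NKT-like cells centre on 7 in both libraries, other T cells have a median of 5 in antibiotic and 3 in vehicle, and 55.9% of antibiotic and 52.9% of vehicle pDC had none.

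Between treatments the summed family differed little in NKT-like and B cells and more in NK and other T cells. The antibiotic over vehicle ratio was 1.05 (1.04 to 1.06) in NKT-like cells, 1.02 (0.994 to 1.05) in B cells, 1.24 (1.16 to 1.33) in NK cells, 1.29 (1.25 to 1.33) in other T cells and 1.10 (0.918 to 1.32) in pDC. In other T cells the mix of subsets differed too. Memory-like cells, which have the higher Gimap level, made up 32.2% of the class in antibiotic (28.6 to 35.9) and 19.2% in vehicle (16.5 to 22.1), and naive-like cells 25.7% and 30.4%. Within memory-like cells the summed ratio was 1.13 (1.07 to 1.19), and within naive-like cells 1.10 (1.03 to 1.18), both lower than in the class as a whole. Memory-like cells were 209 of 650 other T cells in antibiotic and 151 of 786 in vehicle, and naive-like cells 167 and 239. Cells of the class in neither gate were not measured apart, and the part of the mix in this result was not tested. Within ILC1-type and Eomes-type NK cells the summed ratio was 1.13 (1.02 to 1.25) and 1.12 (0.945 to 1.31). The mix of NK subsets differed as well. ILC1-type cells, which have the higher Gimap level, made up 35.4% of NK cells in antibiotic (26.0 to 45.6) and 22.7% in vehicle (17.7 to 28.3). Eomes-type cells made up 22.2% and 29.7%, and the part of this mix in the NK result was not tested. NK cells of the antibiotic library also carried less of other lineages' transcripts, with 4 neutrophil markers summing to 7.80 CPM (3 of 4 at 0) against 598 CPM in vehicle NK cells, and the part of these transcripts in the NK result was not tested.

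The sum hid members that went opposite ways, and Gimap5 was the member furthest above the rest. In NKT-like cells Gimap5 stood at 504 CPM in antibiotic (493 to 515) and 286 CPM in vehicle (278 to 295), a ratio of 1.76 (1.70 to 1.82). Of the 8 members it was the only one to reach 1.5-fold there, where 1.63% of 2569 genes were 1.5-fold higher and 5.72% were 1.5-fold lower, and it ranked at number 17 from the top. In other T cells it had 352 CPM in antibiotic and 175 CPM in vehicle, a ratio of 2.01 (1.81 to 2.23) and number 29 of 2405 genes, again as the 1 member of 8 past 1.5-fold, with backgrounds of 3.66% higher and 4.37% lower. NK cells had 554 CPM in antibiotic and 316 CPM in vehicle, a ratio of 1.75 (1.42 to 2.16). Here 1 of 8 members was 1.5-fold higher and 1 was lower, and with backgrounds of 12.4% and 10.0% over 3068 genes these counts are near those of all genes. In B cells Gimap5 had 211 CPM in antibiotic and 150 CPM in vehicle, a ratio of 1.41 (1.28 to 1.54), and none of the 8 members passed 1.5-fold, where 2.38% of 2477 genes were higher and 1.61% lower.

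In pDC the Gimap5 ratio was 3.04 (1.71 to 5.27), from 22 UMIs in 34 antibiotic cells and 38 UMIs in 174 vehicle cells. It was the 1 of 5 members tested that passed 1.5-fold, against 10.5% of 3038 genes higher and 10.9% lower. The pDC class of the vehicle library carried 4114 CPM of the 4 neutrophil markers, all of which were at 0 in antibiotic pDC, and 10.3% of its cells were scored as doublets against 2.94% in antibiotic. Without scored doublets the summed family ratio in pDC was 0.56 on the log2 scale, against 0.14 with them. It was -0.064 with stricter gates and -0.065 with free RNA subtracted, so no direction for the family in pDC is given here.

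The Gimap5 level was higher in the antibiotic library in each of the 5 classes and of the 12 subsets gated inside them. The ratio was 1.59 (1.33 to 1.89) in memory-like and 1.53 (1.18 to 1.97) in naive-like other T cells, 2.003 (1.60 to 2.52) in CD4 and 1.56 (1.24 to 1.95) in CD8 cells, and 1.77 (1.65 to 1.90) in activated and 1.76 (1.69 to 1.83) in non-activated NKT-like cells. The intervals reached below 1 in Eomes-type NK cells (1.32, 0.801 to 2.12) and in Vpreb3-type B cells (1.17, 0.891 to 1.54). Among 1911 genes tested in NKT-like, NK, B and other T cells, 18, or 0.942%, had a lowest ratio across these classes at least as high as that of Gimap5, which is among the 18. They include Txnip, a thioredoxin-binding protein of resting cells, with a lowest ratio of 1.67, and, named after their values were seen, the cold-inducible RNA-binding protein genes Cirbp (2.62) and Rbm3 (1.72). In single NKT-like cells thinned to 1500 UMIs, 51.8% of antibiotic (50.3 to 53.3) and 34.6% of vehicle cells (33.0 to 36.2) had a Gimap5 UMI. Before thinning these shares were 81.9% and 69.3%. In thinned monocytes and macrophages they were 0 of 11 and 0 of 50 cells, which allows shares of up to about 27.3% and 6%, taken as 3 cells over the number of cells.

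Gimap7 went the other way in the cells that use it most. In NKT-like cells it had 364 CPM in antibiotic (355 to 373) and 518 CPM in vehicle (507 to 529), a ratio of 0.703 (0.680 to 0.727), which falls just short of 1.5-fold lower. It ranked at number 2373 of 2569 genes from the top there, where 5.72% of genes were 1.5-fold lower, so many other genes were lower still. NK cells had 222 CPM in antibiotic and 341 CPM in vehicle, a ratio of 0.652 (0.481 to 0.870) from 57 and 273 UMIs. Gimap7 ranked at number 2786 of 3068 genes from the top there. It was the member past 1.5-fold lower in that class, where 10.0% of genes were. The call was lost with stricter gates, without ribosomal, mitochondrial and immunoglobulin genes, with cells weighted alike and after thinning, where the ratio was highest at 0.807. In the other T class as a whole the ratio was 0.963 (0.856 to 1.08), but in memory-like cells it was 0.655 (0.553 to 0.775) and in naive-like cells 0.781 (0.525 to 1.15). These gates leave out part of the class, and the cells in neither gate were not measured apart. ILC1-type NK cells had a ratio of 0.458 (0.297 to 0.684), and B cells one of 0.882 (0.790 to 0.982). The share of thinned NKT-like cells with a Gimap7 UMI was 41.7% in antibiotic (40.2 to 43.2) and 53.3% in vehicle (51.7 to 55.0).

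The number of Gimap5 UMIs for each Gimap7 UMI needs no scaling to the library, and it moves if either gene does, so it gives no direction for one gene alone. In NKT-like cells it was 1.39 in antibiotic (1.34 to 1.43) and 0.553 in vehicle (0.534 to 0.573). Other T cells had 1.79 in antibiotic (1.60 to 2.005) and 0.858 in vehicle (0.768 to 0.958), NK cells 2.49 (1.82 to 3.45) and 0.927 (0.778 to 1.10), and B cells 1.60 (1.42 to 1.80) and 1.00 (0.928 to 1.08). The intervals of the libraries did not overlap in any of these classes. Within memory-like T cells it was 1.504 in antibiotic and 0.620 in vehicle, and within naive-like T cells 2.95 (2.06 to 4.31) in antibiotic and 1.51 (1.14 to 2.01) in vehicle. The intervals did overlap in pDC (0.9997 to 5.20 and 0.593 to 1.52) and in Eomes-type NK cells (1.80 to 16.1 and 1.19 to 2.60). Gimap5 and Gimap7 had the highest and lowest ratios of all members in NKT-like, NK and other T cells. A gap between libraries there follows from taking this pair and is no separate support.

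**Figure D4:**
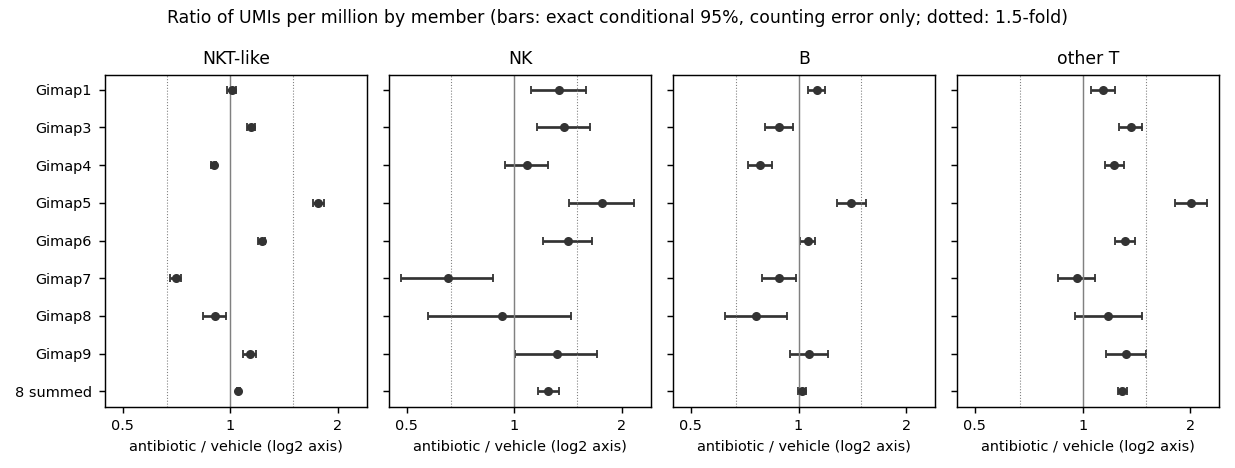
Ratio of CPM, antibiotic over vehicle (x axis, log2 scale), for each member and the 8 summed (y axis) in NKT-like, NK, B and other T cells, with exact conditional 95% intervals. Solid lines mark a ratio of 1 and dotted lines 1.5-fold. Gimap5 lies furthest to the right in each panel (1.76, 1.75, 1.41 and 2.01), and Gimap7 is furthest to the left in NKT-like (0.703), NK (0.652) and other T cells (0.963).

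The remaining members differed by less. In NKT-like cells Gimap6 had 1012 CPM in antibiotic and 826 CPM in vehicle (ratio 1.23, 1.20 to 1.25), Gimap3 898 CPM and 785 CPM (1.14, 1.12 to 1.17) and Gimap9 263 CPM and 232 CPM (1.13, 1.08 to 1.18). Gimap1 was at 571 CPM and 565 CPM, a ratio of 1.01 (0.982 to 1.04). Gimap4 had 1249 CPM in antibiotic and 1391 CPM in vehicle (0.898, 0.881 to 0.915), and Gimap8 79.9 CPM and 88.3 CPM (0.904, 0.839 to 0.974). Scaling to genes other than ribosomal, mitochondrial and immunoglobulin ones raised every ratio in NKT-like cells by 0.15 on the log2 scale, since these genes took 41.2% of UMIs in antibiotic and 34.7% in vehicle, and on that scale the log2 ratio of Gimap4 was -0.0040 and that of Gimap8 0.0061, so their lower values did not hold there. In other T cells Gimap3 (1.36), Gimap9 (1.32), Gimap6 (1.32), Gimap4 (1.23) and Gimap1 (1.14) had intervals above 1, while that of Gimap8 (1.18, 0.950 to 1.46) did not. In the gated subsets of the class Gimap4 was near 1, at 0.941 (0.802 to 1.10) in naive-like, 1.06 (0.965 to 1.17) in memory-like, 0.994 (0.877 to 1.13) in CD4 and 0.992 (0.839 to 1.17) in CD8 cells, beside the larger share of memory-like cells in the antibiotic library. Each pair of gates leaves out part of the class, and the part of the mix in the Gimap4 ratio was not tested. In B cells Gimap8 (0.762, 0.622 to 0.928), Gimap4 (0.780, 0.721 to 0.843) and Gimap3 (0.884, 0.807 to 0.968) were lower in the antibiotic library. Gimap1 was 1.12-fold higher there (1.06 to 1.18), and at a minimum of 2500 UMIs per cell it was lower instead (-0.09 on the log2 scale).

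As a share of all Gimap UMIs, Gimap5 held 10.2% in antibiotic and 6.10% in vehicle NKT-like cells, 11.8% and 8.37% in NK, 9.65% and 7.01% in B and 10.3% and 6.62% in other T cells. Gimap7 held 7.37% in antibiotic and 11.0% in vehicle NKT-like cells and 4.74% and 9.03% in NK cells. The median log2 ratio of the 8 members was 0.10 in NKT-like, 0.40 in NK, -0.05 in B and 0.35 in other T cells, beside medians over all genes tested of -0.08, 0.02, 0.03 and -0.01.

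Since Gimap5 and Gimap7 lie on either side of Gimap1, which had about the same NKT-like level in both libraries, the 250 bases before the starts of these 3 genes are shown, as annotated by RefSeq on GRCm38.p6. Starts were found for 8 of 8 members. Letters are given 5′ to 3′ on the strand of the gene, and capitals mark a match to TGTGGT, the core of sites bound by RUNX factors, on either strand.
Gimap7 (chr6:48718371-48718620, plus strand): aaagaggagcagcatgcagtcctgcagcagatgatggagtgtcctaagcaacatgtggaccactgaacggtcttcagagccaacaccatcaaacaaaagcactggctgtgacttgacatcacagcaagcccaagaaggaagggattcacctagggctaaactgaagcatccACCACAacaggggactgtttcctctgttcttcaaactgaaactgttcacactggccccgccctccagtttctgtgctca
Gimap1 (chr6:48738797-48739046, plus strand): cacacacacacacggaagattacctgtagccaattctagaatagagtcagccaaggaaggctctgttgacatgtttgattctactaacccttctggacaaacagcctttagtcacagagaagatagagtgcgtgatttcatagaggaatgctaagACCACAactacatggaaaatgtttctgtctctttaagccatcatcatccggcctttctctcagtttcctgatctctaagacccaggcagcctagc
Gimap5 (chr6:48745947-48746196, plus strand): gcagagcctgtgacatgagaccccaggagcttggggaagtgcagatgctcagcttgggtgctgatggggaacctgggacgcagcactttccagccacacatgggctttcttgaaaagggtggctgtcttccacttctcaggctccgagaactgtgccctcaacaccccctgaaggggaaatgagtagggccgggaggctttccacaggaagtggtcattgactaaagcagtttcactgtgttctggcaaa

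The RUNX letters were found between 250 bases before and 50 after the start in Gimap1, Gimap4 and Gimap7, and in 16.9% of 27025 mouse promoters of the same length. They were not in this window of Gimap5. GTAAACA, bound by FOXO factors, was in that of Gimap3 and in 3.55% of all promoters. No member held CTTTGAT (TCF1 and LEF1, 3.72% of promoters), CCGGAAGT (ETS, 4.0%), GGGTGTG (KLF, 7.85%) or CACGTG (E-box, 7.24%), with both strands searched. These matches describe letters and were not measured as binding.

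Of 60 genes annotated within 500 kb of the cluster, 40 were in the files, 32 of them outside the family, and most of those were nearly silent in lymphocytes. In NKT-like cells 3 neighbors were tested. Tmem176b, which encodes an ion channel of intracellular membranes, had 157 CPM in antibiotic and 89.3 CPM in vehicle (1.75, 1.65 to 1.87), its neighbor Tmem176a 94.3 CPM and 72.3 CPM (1.30, 1.21 to 1.41), and Tra2a, a splicing factor gene further away, 84.1 CPM and 104 CPM (0.808, 0.753 to 0.867). In other T cells 2 neighbors were tested, 1 past 1.5-fold higher and 1 lower. There Tmem176b was at 68.0 CPM in antibiotic and 12.9 CPM in vehicle (5.28, 3.77 to 7.54), and Tra2a at 78.0 CPM and 125 CPM (0.622, 0.522 to 0.738). Ratios along the cluster did not follow position: from Gimap7 over Gimap1 and Gimap5 to Gimap3 they were 0.703, 1.01, 1.76 and 1.14 in NKT-like cells.

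**Figure D5:**
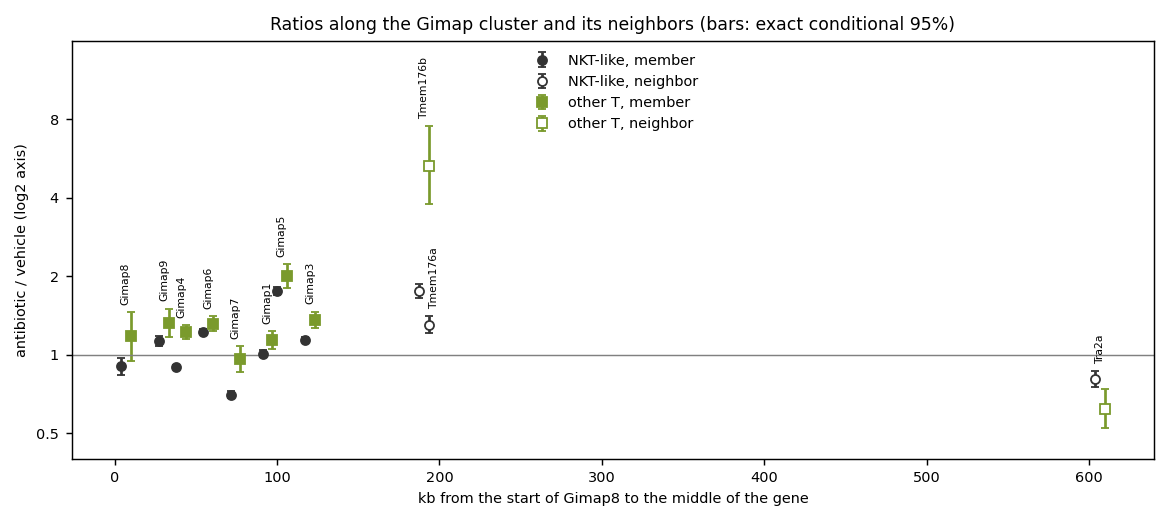
Antibiotic over vehicle ratio (y axis, log2 scale) against distance in kb from the start of Gimap8 to the middle of each gene (x axis), in NKT-like cells (black circles) and other T cells (green squares), with exact conditional 95% intervals. Filled points are the 8 members and open points tested neighbors. Points of the classes are set slightly apart along the x axis. Gimap5 (1.76 and 2.01) lies above its flanking members, and Tmem176b (1.75 and 5.28) is higher still in other T cells.

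Genes of cell survival were read beside the family from 12 listed genes. In NKT-like cells 8 were tested, and 0 were past 1.5-fold higher and 0 past 1.5-fold lower (1.63% and 5.72% of all genes tested), with 2 above 1 and a median log2 ratio of -0.18. Bcl2, the first known anti-apoptotic gene of its family, was at 559 CPM in antibiotic and 382 CPM in vehicle (1.46, 1.42 to 1.51), and Bak1, a pore former of mitochondrial death, at 39.6 CPM and 57.1 CPM (0.694, 0.627 to 0.767). In other T cells 3 of 7 tested were past 1.5-fold higher and 0 lower, where 3.66% of all genes tested were higher and 4.37% lower. They were Bcl2 with 588 CPM in antibiotic and 308 CPM in vehicle (1.91, 1.77 to 2.07), and the anti-apoptotic genes Bcl2a1b (1.56, 1.35 to 1.81) and Bcl2a1d (1.58, 1.27 to 1.95), which are near-identical copies whose reads counting could split. Of the 7 tested, 5 were above 1. The listed pro-apoptotic gene Bcl2l11 was under the minimum of 50 CPM and not counted. It too was higher in antibiotic other T cells, at 42.2 CPM against 21.4 CPM in vehicle (1.98, 1.45 to 2.70). The autophagy gene Gabarapl2, whose product binds Gimap6, was at 354 CPM in antibiotic and 369 CPM in vehicle NKT-like cells (0.958, 0.924 to 0.993), and Gabarap at 307 CPM and 356 CPM (0.863, 0.831 to 0.896).

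Of 12 genes of quiescence and recirculation, 2 of 8 tested in NKT-like cells were past 1.5-fold higher and 0 lower, where 1.63% of all genes tested were higher and 5.72% lower. These were Il7r, a receptor chain through which IL-7 keeps T cells alive, with 337 CPM in antibiotic and 131 CPM in vehicle (2.58, 2.45 to 2.71), and Txnip with 251 CPM and 151 CPM (1.67, 1.58 to 1.75). Klf2, a transcription factor of resting, recirculating T cells, was at 178 CPM in antibiotic and 247 CPM in vehicle (0.719, 0.685 to 0.754). In other T cells 2 of 12 were past 1.5-fold higher and 1 lower (3.66% and 4.37% of all genes tested), with 4 above 1 and a median log2 ratio of -0.28. The higher ones were Il7r (1.73, 1.58 to 1.89) and Txnip (1.94, 1.74 to 2.17). Ccr7 (0.792), Tcf7 (0.809) and Lef1 (0.834), genes of naive T cells, were below 1 there, beside the smaller share of naive-like cells in the antibiotic library. In NK cells Il7r had 179 CPM in antibiotic and 33.7 CPM in vehicle (5.32, 3.24 to 8.90, from 46 and 27 UMIs).

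Over the 10 points formed by 5 classes in 2 libraries, the level of each member followed that of the other 7, with Pearson r between 0.90 for Gimap1 and 0.98 for Gimap8 on the log2(CPM + 10) scale. Classes of a library share its capture and depth, so these values are a description. Of 4081 genes compared, the 10 outside the family with the most similar pattern to the family sum were Bcl2 (r = 0.96), Arap2 (0.96), Psip1 (0.96), Evl (0.95), Itpr2 (0.95), Zdhhc18 (0.95), Pde2a (0.95), 0610011F06Rik (0.93), Fundc2 (0.93) and Rtf1 (0.93).

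Barcodes with 10 to 100 UMIs, which hold free RNA and fragments of cells, showed the family too. They had 4890 Gimap CPM in antibiotic and 3835 CPM in vehicle (1.28, 1.25 to 1.30), near the level of NKT-like cells in antibiotic (4940 CPM) but below it in vehicle (4691 CPM). Gimap5 was at 581 CPM in antibiotic and 268 CPM in vehicle there (2.16, 2.01 to 2.33), and Gimap7 at 297 CPM and 361 CPM (0.823, 0.759 to 0.892). From genes of other lineages, free RNA was estimated at 11.0% of UMIs in antibiotic and 14.0% in vehicle NKT-like cells, 13.9% and 15.6% in other T, 8.72% and 10.2% in B, 7.95% and 7.97% in pDC and 3.80% and 5.50% in NK cells. With that RNA subtracted, all ratios of Gimap5 stayed above 1 and those of Gimap7 in NKT-like and NK cells below 1.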

How the data were processed

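The members, the gene lists, the gates and the alternatives were chosen with earlier results of these data known. The counts, as deposited by the authors, are raw UMIs per gene and barcode, not filtered for cells and not normalized. Cell Ranger, bcl2fastq and the build mm10 are listed in the submitters' notes. Tool versions are not given in the sources used here. Cells were barcodes with at least 1500 UMIs and under 10% mitochondrial UMIs, which left out 1 antibiotic and 13 vehicle barcodes for mitochondrial UMIs. Cells held 85.5% of 29811401 UMIs in antibiotic and 85.7% of 41474311 UMIs in vehicle.

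Gates were applied in this order, in UMIs: B (Cd79a at least 2, Cd3e 0), pDC (Siglech at least 2), NK (Ncr1 at least 1, Cd3d, Cd3e and Cd3g 0), NKT-like (Trac and Cxcr6 at least 1 each) and other T (Trac at least 2, Cxcr6 0). No class fitted 741 antibiotic and 1206 vehicle cells. Counts were summed per class and library and divided by the class total (CPM). Intervals are exact Poisson for levels, exact conditional for ratios and Clopper-Pearson for shares, and UMIs were taken as independent molecules. Where 0 cells had a UMI, the limit given is 3 cells over the number of cells. Replicates were lacking, so no p-value was computed. Genes were compared by fold where the higher library had at least 50 CPM and both libraries together at least 30 UMIs. Doublets, scored by Scrublet at an expected 6% (141 antibiotic and 400 vehicle cells), were kept. Named genes are the 8 members, the survival and quiescence lists, neighbors within 500 kb and the 10 genes of most similar pattern. The values of 1 listed gene are not reported here. Interval code was tested on simulated data. Tools were scanpy 1.11.5, pandas 2.3.3, scipy 1.17.1, matplotlib 3.10.9 and numpy 2.4.6 under Python 3.11.15.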

Additional observations from a re-analysis of the deposited data

Results flagged for a closer look

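Gimap3 and Gimap4 had ratios of antibiotic over vehicle on opposite sides of 1 in different classes, each with a counting interval clear of 1. The ratio of Gimap3 was 1.14 in NKT-like, 1.37 in NK and 1.36 in other T cells, against 0.884 in B cells. For Gimap4 it was 1.23 in other T cells, against 0.898 in NKT-like and 0.780 in B cells. Within the naive-like, memory-like, CD4 and CD8 other T cells the ratio of Gimap4 was 0.941, 1.06, 0.994 and 0.992, with intervals that include 1, and memory-like cells made up 32.2% of that class in antibiotic and 19.2% in vehicle. Each pair of these gates leaves out part of the class, and the part of the mix was not tested. Without ribosomal, mitochondrial and immunoglobulin genes the log2 ratio of Gimap4 in NKT-like cells was -0.0040. The differences between classes were not tested, since each group had 1 library.

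Cells that no gate took showed higher levels in the antibiotic library for Gimap5 (ratio 1.77), Gimap3 (1.40), Gimap6 (1.26), Gimap9 (1.17) and Gimap1 (1.11). Barcodes of 10 to 100 UMIs, which were not called as cells, did so for Gimap5 (2.16), Gimap3 (1.52), Gimap6 (1.34), Gimap9 (1.19) and Gimap4 (1.17).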

How the results depend on the processing

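Of 357 recomputed member ratios 329 stayed within the counting interval of the reported value. Of the 511 recomputed values in all, 425 stayed within the limits set for them and 86 did not. None of these turned a 1.5-fold difference round, which only ratios past 1.5-fold could do. Smaller ratios did change sign under some alternatives, among them Gimap6 and Gimap9 in B cells, Gimap7 in other T cells and several members in pDC. Gimap5 stayed above 1 in every class under every alternative, between 1.68 and 1.96 in NKT-like, 1.54 and 1.99 in NK, 1.29 and 1.45 in B, 2.89 and 4.54 in pDC and 1.97 and 2.10 in other T cells. Gimap7 stayed between 0.686 and 0.781 in NKT-like and 0.637 and 0.807 in NK cells, while in other T cells it ran from 0.939 to 1.15. At a fold of 2, 0 members were higher in NKT-like cells and 0 higher and 0 lower in NK cells.

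The log2 values of the summed family that left their counting interval were these. For antibiotic over vehicle, NKT-like cells gave 0.054 with stricter gates, 0.23 without ribosomal, mitochondrial and immunoglobulin genes, 0.057 without doublets, 0.058 with cells weighted alike, 0.038 thinned and 0.034 with free RNA subtracted. B cells gave -0.046 at a minimum of 2500 UMIs and -0.015 with free RNA subtracted, pDC gave 0.56 without doublets, and other T cells gave 0.43 without the gene groups above. Over other T cells, antibiotic first and vehicle after it, leaving out those gene groups gave 0.46 and 0.66 for NKT-like, 0.12 and 0.14 for NK, -0.75 and -0.38 for B and -2.61 and -2.41 for pDC. Subtracting free RNA gave 0.64 and 1.00 for NKT-like, 0.57 and 0.64 for NK, -0.71 for antibiotic B and -3.25 and -2.80 for pDC. Thinning gave 0.49 for antibiotic NKT-like, 0.29 and 0.44 for NK, -0.36 for vehicle B and -2.46 for vehicle pDC. Weighting cells alike gave 0.34 and 0.40 for NK, -0.37 for vehicle B and -2.62 and -2.36 for pDC. Leaving out doublets gave -0.69 and -0.36 for B and -2.57 and -2.78 for pDC. Stricter gates gave 0.44 for vehicle NK, -0.70 and -0.38 for B and -3.31 and -2.90 for pDC. A minimum of 2500 UMIs gave 0.58 and 0.62 for NK and -0.73 for antibiotic B. The causes were not tested.

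No paired analysis was possible because each group was 1 library. The 34 antibiotic pDC and 99 antibiotic NK cells limit what those classes can show.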
